A study of Mus musculus with 35 samples.

Results

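The 10 genes described here encode ETS transcription factors of blood cells: Spi1, Spib, Erg, Fli1, Etv6, Ets1, Ets2, Elf1, Elf4 and Gabpa. They were taken by name, 10 of the 21883 protein-coding genes of the annotation. No measured value entered the rule, but earlier results of these data were known when they were chosen. Peaks of 3 histone marks were available in C57BL/6 mouse bone marrow: H3K4me1, which lies over enhancers and promoter flanks, H3K4me3, which lies over promoters, and H3K27ac, which marks active elements of both kinds. The 5 groups were lineage-negative stem and progenitor cells (HSPC) of wild-type (WT) mice, of mice with the Npm1c mutation, of mice with the Flt3-ITD mutation and of DM mice, and neutrophils of WT mice. The labels never expand DM, and it is taken here to carry both mutations. The labels used here give neither the age of the mice nor the promoter or Cre line that drives the mutations. Cells were separated with magnetic bead kits, and each group had 2 biological replicates per mark, 30 peak lists in all.

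ETS proteins share a DNA-binding domain that recognises a GGAA core, and members differ in the bases they favour around it and in their partners. In the marrow, PU.1, the product of Spi1, directs myeloid and B-cell development, while ERG, FLI1 and ETV6 are known for keeping stem cells. Because the family binds one core sequence, several members can occupy the same enhancer, and many blood genes, Spi1 among them, carry ETS sites of their own.

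RefSeq promoter sequences (GRCm38.p6, the assembly of mm10) were found for 7 of the 10 genes, not for Spi1, Fli1 and Ets1. The 5 stretches below are shown because they differed in the number of libraries with H3K27ac. A stretch counted as carrying a mark when peaks covered at least 1 bp of it. The Etv6 and Ets2 stretches carried H3K27ac in 10 of 10 libraries, the inner Elf4 stretch in 7, the third Erg stretch in 3 and the distal Elf4 stretch in 2. Each is the 250 bases before the annotated start, written 5′ to 3′ on the strand of the gene, with capitals marking GGAA or its reverse complement TTCC.

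Etv6, chr6:134035450-134035699, plus strand: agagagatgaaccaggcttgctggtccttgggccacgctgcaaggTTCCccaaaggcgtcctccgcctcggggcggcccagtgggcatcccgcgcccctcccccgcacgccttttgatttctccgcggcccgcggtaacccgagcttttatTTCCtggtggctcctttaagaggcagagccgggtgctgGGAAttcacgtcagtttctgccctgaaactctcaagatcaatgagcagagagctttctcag

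Ets2, chr16:95702157-95702406, plus strand: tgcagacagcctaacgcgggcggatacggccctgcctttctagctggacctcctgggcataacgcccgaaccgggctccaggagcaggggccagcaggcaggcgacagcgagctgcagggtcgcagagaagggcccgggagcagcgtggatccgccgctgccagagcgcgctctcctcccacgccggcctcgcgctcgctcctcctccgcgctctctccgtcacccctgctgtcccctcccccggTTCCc

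Erg, the third start, chr16:95459349-95459598, minus strand: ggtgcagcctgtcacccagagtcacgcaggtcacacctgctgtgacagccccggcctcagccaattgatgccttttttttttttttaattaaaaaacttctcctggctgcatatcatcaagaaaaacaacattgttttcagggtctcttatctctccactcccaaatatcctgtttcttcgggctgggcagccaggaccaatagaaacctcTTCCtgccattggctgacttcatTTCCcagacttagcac

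Elf4, distal start, chrX:48463133-48463382, minus strand: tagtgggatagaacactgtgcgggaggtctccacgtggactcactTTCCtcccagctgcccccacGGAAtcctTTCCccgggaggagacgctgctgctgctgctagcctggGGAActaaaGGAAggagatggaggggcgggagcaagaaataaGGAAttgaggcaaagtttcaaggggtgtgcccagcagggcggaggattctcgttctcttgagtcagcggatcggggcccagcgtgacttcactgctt

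Elf4, inner start, chrX:48454320-48454569, minus strand: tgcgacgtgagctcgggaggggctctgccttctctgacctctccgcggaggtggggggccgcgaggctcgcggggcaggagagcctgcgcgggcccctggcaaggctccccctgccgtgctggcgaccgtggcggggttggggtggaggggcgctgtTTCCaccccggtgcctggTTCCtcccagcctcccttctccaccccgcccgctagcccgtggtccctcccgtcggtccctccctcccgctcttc

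The GGAA core, searched on both strands, occurred 3 times in the Etv6 stretch, 1 time in Ets2, 2 times at the third Erg start, 6 times at the distal Elf4 start and 2 times at the inner one. It was present in 93.4% of the 32851 promoters of the table at this length, so its presence sets none of them apart. A GATA word (AGATAA, both strands) was in the Erg stretch, as in 9.99% of all promoters. The longer ETS word CCGGAAG was in none of the 5 and in 6.91% of all promoters. Base composition also differed: the Etv6 stretch held 60.4% G and C with 16 CpG, Ets2 71.6% with 25, the inner Elf4 start 74.4% with 23, the distal one 58.4% with 11 and the third Erg start 47.2% with 3. H3K4me3 lay over the Etv6, Ets2 and distal Elf4 stretches in 10 of 10 libraries and over the third Erg and inner Elf4 stretches in 0. The other 2 annotated Erg starts had no peak of any mark in any library.

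A value below is the length of a gene's window under peaks, in kb. The window was the gene span plus 20 kb on each side for H3K27ac and H3K4me1 and plus 5 kb for H3K4me3. The lists hold no peak height, and read depth is unknown. H3K27ac lists held 21709 to 30150 peaks and covered 15.2 and 15.3 Mb in WT HSPC, 23.4 and 23.9 Mb in Npm1c, 16.6 and 18.3 Mb in Flt3-ITD, 20.3 and 13.5 Mb in DM and 16 and 16.6 Mb in neutrophils. H3K27ac mostly fitted the labelled neutrophils, where 8 neutrophil marker genes summed to 34.6 and 37 kb against 4.65 to 9.17 kb in the HSPC libraries. Of the HSPC marker genes, Kit, Gata2, Meis1 and Mycn were at 0 in both neutrophil libraries. Flt3 had a mean of 0.347 kb in neutrophils against 1.24 kb in WT HSPC, and Cd34 had 1.03 kb against 0.893 kb. In WT HSPC, 5 of 6 HSPC marker genes had H3K27ac in both libraries and Mycn had none, while S100a8, S100a9 and Mmp9 had none in any HSPC group. Cells were pooled in each library, so a change in the mark within cells and a change in the mix of cell types cannot be told apart.

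Against WT HSPC, 6 of the 10 genes passed the test of H3K27ac coverage in neutrophils, with Ets1, Fli1, Etv6, Spi1 and Ets2 higher and Elf1 lower. In Npm1c HSPC, 3 passed, Etv6, Erg and Elf1, all higher. In DM HSPC, 2 passed, Etv6 and Erg, both higher. In Flt3-ITD HSPC none passed, and 2 had an unadjusted p under 0.05, as did 15.8% of all genes. The test was limma on log2(bp + 500) with Benjamini-Hochberg adjustment over the 14555 genes tested and a threshold of 0.05, and it called 37.8% of all genes in neutrophils, 19.2% in Npm1c, 13.5% in DM and 0.124% in Flt3-ITD. Read against these shares, the counts of 3 and 2 of 10 are near the background. Without the filter on genes of low coverage, the counts in Npm1c and DM became 0. In neutrophils the calls at Fli1, Etv6 and Elf1 were then lost, and Gabpa was called lower.

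**Figure D1:**
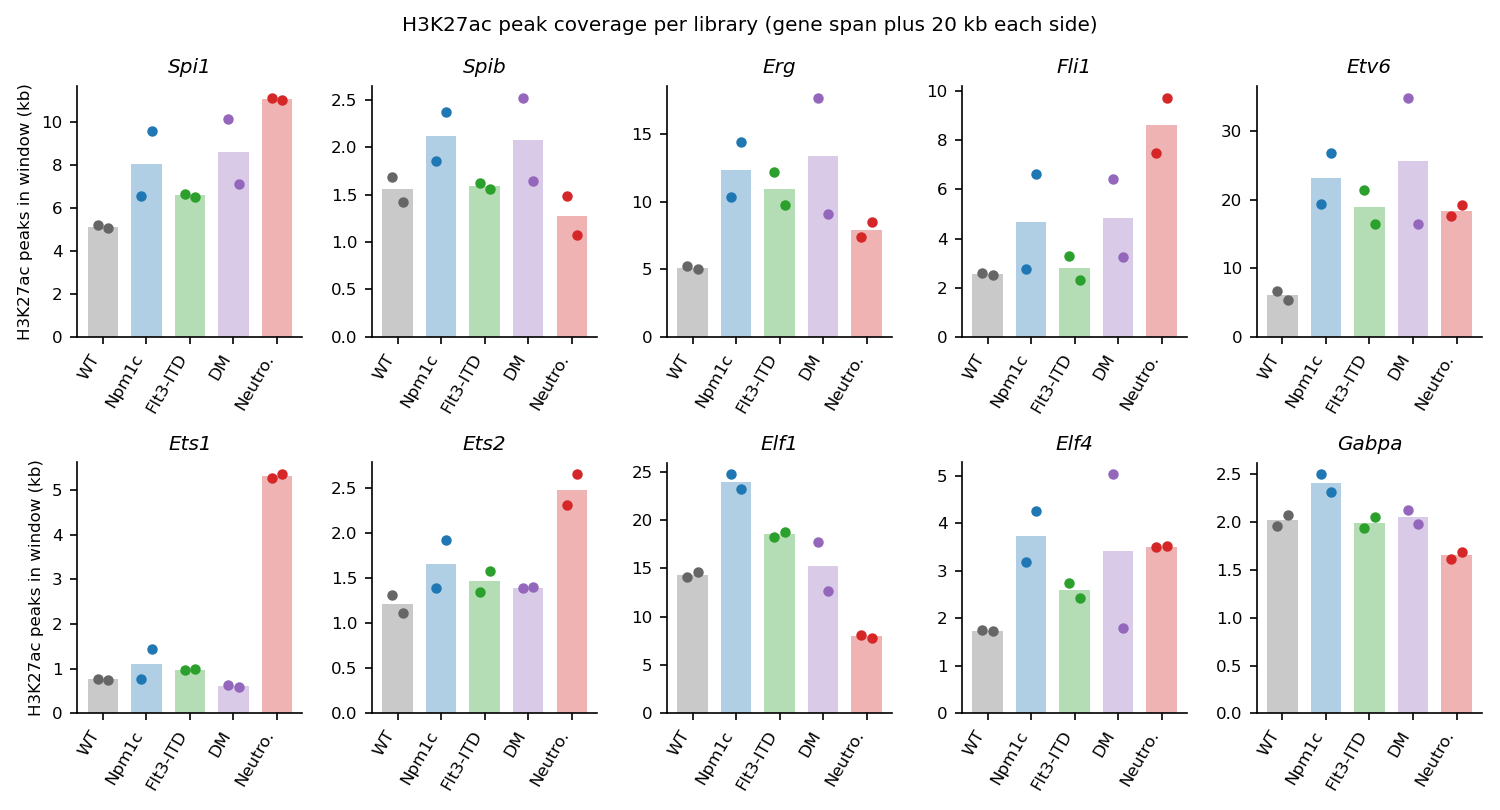
Length of each gene's window (gene span plus 20 kb on each side) under H3K27ac peaks, in kb, for the 10 ETS genes; points are the 2 libraries of a group and bars their mean. Etv6 sits at 5.37 and 6.77 kb in WT HSPC and at 16.5 kb or more in the other 8 libraries, and Ets1 is above 5 kb only in neutrophils.

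The 4 comparisons share the same 2 WT HSPC libraries and are therefore not independent of each other. Over all genes tested, the median log2 difference was 0.39 in Npm1c HSPC, 0.13 in Flt3-ITD, 0.03 in DM and −0.13 in neutrophils. The median over the 10 ETS genes was 0.62, 0.28, 0.49 and 0.82 in the same order. When each library was centred on its own median over genes, the count in Npm1c HSPC fell from 3 to 0. Etv6 then stood at 1.41 with an adjusted p of 0.056, Erg at 0.75 (0.171) and Elf1 at 0.29 (0.201).

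**Figure D2:**
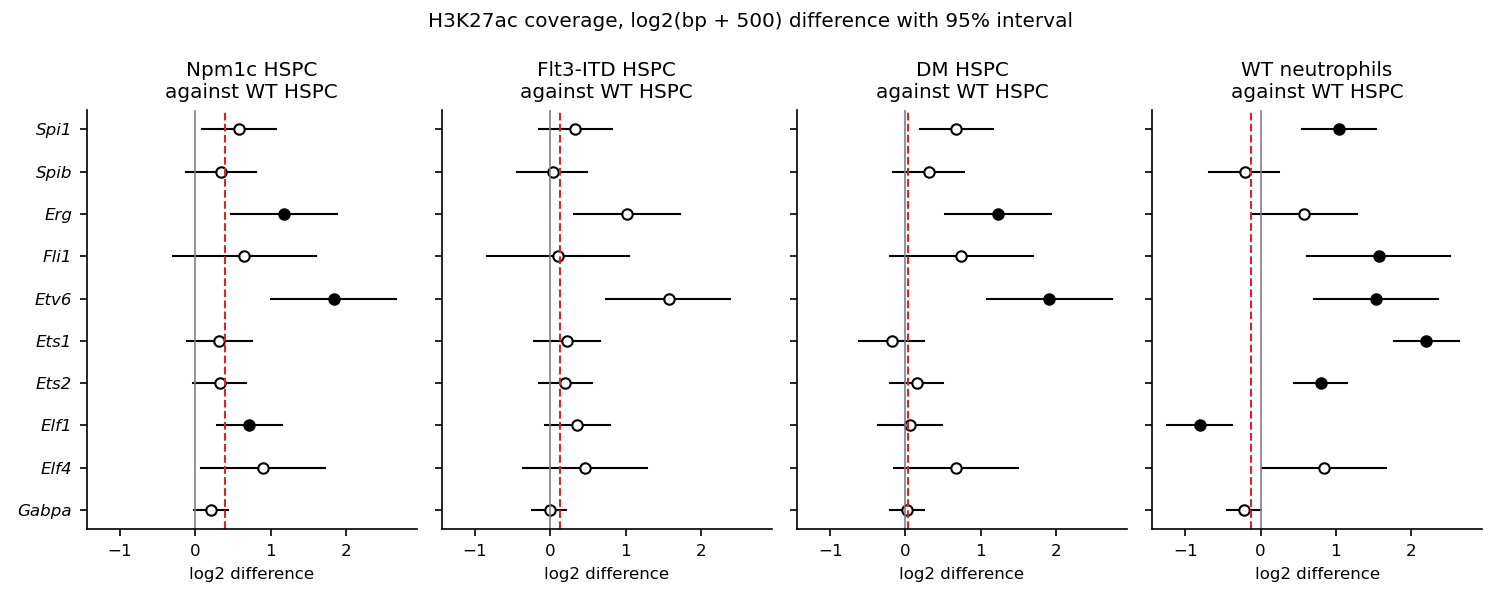
Log2 differences in H3K27ac coverage, log2(bp + 500), from WT HSPC for the 10 ETS genes in Npm1c, Flt3-ITD and DM HSPC and in neutrophils. Points are fitted differences, filled where the adjusted p is below 0.05, lines are 95% intervals and the dashed line is the median over all genes tested; Etv6 is the largest of the 10 in each mutant and Ets1 the largest in neutrophils.

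Among the mutants, DM HSPC differed from Npm1c HSPC at 1 gene, Elf1, where 35.8% of all genes were called. DM differed from Flt3-ITD HSPC at 0 of the 10 in limma, with 0 at an unadjusted p under 0.05 and 2.44% of all genes called. Over all genes, 16.6% had an unadjusted p under 0.05. The 2 DM libraries were far apart: 9 of the 10 genes had more H3K27ac in DM 1 than in DM 2, as did the whole list. In Npm1c HSPC, 8 of the 10 were higher in the second library, although these lists covered nearly the same length. Leaving out either WT HSPC library ended each of the calls in Npm1c and DM HSPC.

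Spi1 (Gene ID 20375, chr2:91082374-91115759) encodes PU.1. H3K27ac covered 5.2 and 5.04 kb of its window in WT HSPC, 6.53 and 9.58 kb in Npm1c, 6.66 and 6.5 kb in Flt3-ITD, 10.1 and 7.08 kb in DM and 11.1 and 11 kb in neutrophils. Every mutant and neutrophil library was above both WT HSPC libraries, and both neutrophil libraries were the highest. Neutrophils were 2.06-fold higher than WT HSPC on the log2(bp + 500) scale (log2 difference 1.04, SE 0.21, adjusted p = 0.00739 in limma, n = 2 and 2). That call was lost without WT HSPC 2 (adjusted p = 0.0518), neutrophil library 1 (0.0598) or neutrophil library 2 (0.0592), and by number of peaks, where the difference was 0.43 (0.078). The rise in DM HSPC was 0.67 with an adjusted p of 0.0739, and it passed after centring (0.64, adjusted p = 0.0117), with the gene span alone (0.76, 0.0462) and without DM 2 (0.92, 0.0271).

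Part of the Spi1 gain in neutrophils lay within or at the lower end of the annotated gene span. No promoter sequence was found for Spi1, so its regions are not placed against a start. A region at chr2:91085713-91088750 was empty in both WT HSPC libraries, in both Flt3-ITD libraries and in Npm1c 1. Its H3K27ac covered 479 bp in Npm1c 2, 1542 and 700 bp in DM HSPC and 2238 and 2722 bp in neutrophils. The neighbouring region over the lower end of the gene span, chr2:91081682-91085432, was marked in all 10 libraries, with 1579 and 1579 bp in WT HSPC, 3693 and 2829 bp in DM and 3005 and 2717 bp in neutrophils. The third large region, chr2:91095998-91098635, stayed between 1813 and 2635 bp in every library. The window also holds part of Slc39a13 and Mybpc3.

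Spib (Gene ID 272382, chr7:44525995-44532087) encodes Spi-B, the close relative of PU.1 that acts in B cells and plasmacytoid dendritic cells. Its H3K27ac was low in every group, 1.69 and 1.42 kb in WT HSPC, 1.86 and 2.37 kb in Npm1c, 1.62 and 1.56 kb in Flt3-ITD, 2.52 and 1.64 kb in DM and 1.49 and 1.07 kb in neutrophils. No H3K27ac comparison passed the test, and its promoter had H3K27ac in 0 libraries. The difference in neutrophils, −0.21 with a 95% interval of −0.68 to 0.25, took the other sign when the gene span alone was used (0.30, adjusted p = 0.0164). Of its 4 H3K27ac regions, the one at chr7:44547221-44548849, 16 kb before the start, was in all 10 libraries and lies outside the gene. The window holds parts of Mybpc2, Pold1 and Nr1h2. With the windows and test above, H3K4me3 was the only mark with a call at Spib. It covered 2 and 3 kb in WT HSPC against 1 and 1 kb in neutrophils, a fall of 1 or 2 peaks (log2 difference −0.98, adjusted p = 0.0194 in limma). That call was lost without neutrophil library 1 (0.0951) or 2 (0.0984), after centring (−0.61, 0.392) and with a window of 20 kb (−0.18, 0.501).

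Erg (Gene ID 13876, chr16:95359169-95586600) encodes a factor required for stem cell maintenance. H3K27ac covered 5.27 and 5 kb in WT HSPC, 10.4 and 14.4 kb in Npm1c, 12.2 and 9.77 kb in Flt3-ITD, 17.7 and 9.07 kb in DM and 7.39 and 8.48 kb in neutrophils. All 6 mutant libraries lay above both neutrophil libraries, and these lay above both WT HSPC libraries. Npm1c HSPC was 2.26-fold and DM HSPC 2.34-fold above WT HSPC (log2 1.18, SE 0.30, adjusted p = 0.0391, and 1.23, SE 0.30, adjusted p = 0.0359, in limma). Flt3-ITD stood at 1.02 (adjusted p = 0.191) and neutrophils at 0.58 (0.169), called after centring (0.71, 0.0264). Both calls were lost with the gene span alone (0.0631 and 0.0636), without the filter (0.104 and 0.136) and by number of peaks (0.164 and 0.0531), and the Npm1c call after centring. The Npm1c call was also lost without any 1 of its 4 libraries (adjusted p from 0.0656 to 0.178). The DM call was lost without either WT HSPC library (0.162 and 0.179) or DM 1 (0.76, adjusted p = 0.0688), and DM 1 was the highest of the 10 libraries.

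Part of the mutant coverage at Erg lay in 2 stretches beside the innermost annotated start, and none lay at the distal starts. A region at chr16:95451820-95459455, which contains the third start, was marked in all 10 libraries. It measured 3713 and 3858 bp in WT HSPC, 6615 and 7490 bp in Npm1c, 6529 and 6222 bp in Flt3-ITD, 7473 and 5352 bp in DM and 3420 and 3438 bp in neutrophils, so the mutants were wider than both WT groups. Downstream of it, chr16:95438324-95441503 was marked in all 8 HSPC libraries and in neither neutrophil library, with 1145 and 1141 bp in WT HSPC and 2168 to 3180 bp in the mutants. Neutrophils instead had 3 regions of their own beyond the lower end of the gene, between chr16:95347350 and chr16:95350546, which no HSPC library had. H3K27ac reached into the 250 bases printed above for this start in Npm1c 1, Npm1c 2 and DM 1 only. The margin was narrow. Counted from the first annotated start, the peak began at 127.24 kb in Npm1c 1, 127.311 kb in Flt3-ITD 2 and 127.427 kb in both WT HSPC libraries.

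**Figure D3:**
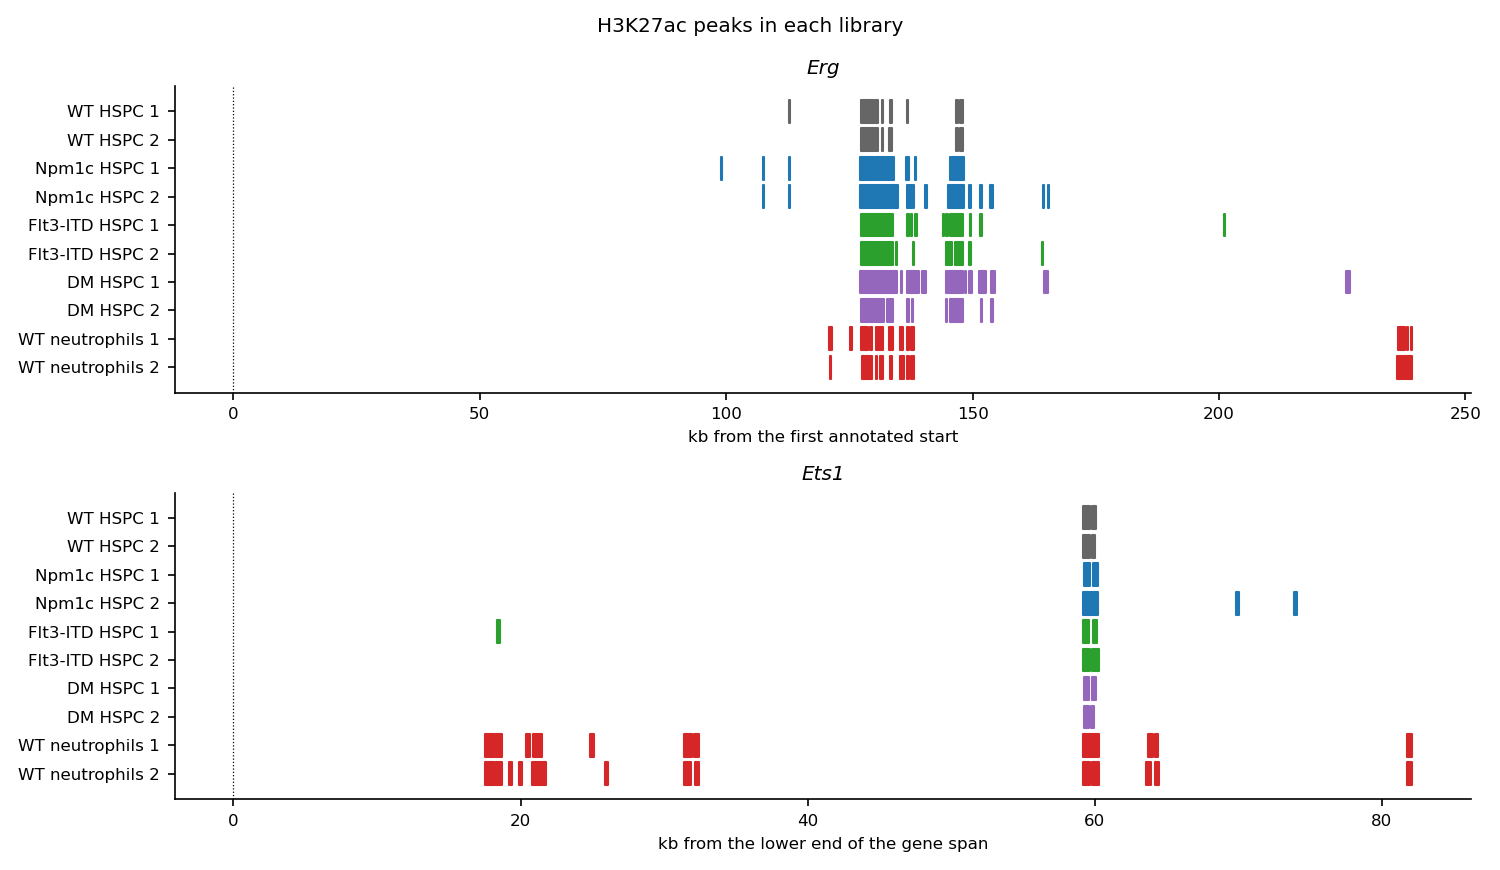
H3K27ac peaks of each of the 10 libraries along Erg (kb from the first annotated start, in the direction of transcription) and Ets1 (kb from the lower end of the gene span). Bars are peaks; at Erg the HSPC peaks cluster near 131 and 146.7 kb and neutrophils add peaks near 238.9 kb, and at Ets1 HSPC libraries share 1 cluster while neutrophils have further ones.

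Fli1 (Gene ID 14247, chr9:32422204-32543432) encodes the factor closest to ERG, needed for megakaryocytes. H3K27ac covered 2.6 and 2.51 kb in WT HSPC, 2.75 and 6.61 kb in Npm1c, 3.29 and 2.32 kb in Flt3-ITD, 6.44 and 3.27 kb in DM and 7.5 and 9.72 kb in neutrophils. Only the neutrophil libraries lay above all HSPC libraries, and the replicates of Npm1c and of DM were far apart. Neutrophils were 2.96-fold above WT HSPC (log2 1.57, SE 0.40, adjusted p = 0.0196 in limma), and the adjusted p was 0.0821 to 0.144 without any 1 of the 4 libraries, 0.0592 without the filter and 0.0614 by number of peaks. One region, chr9:32539929-32541982, near the upper end of the gene span, was marked in all 10 libraries with 1439 to 2017 bp. A group of regions deeper in the gene, among them chr9:32507106-32508777 and chr9:32508963-32509920, held 1082 and 1638 bp and 911 and 921 bp in neutrophils against 276 and 0 bp and 0 and 0 bp in WT HSPC. Of the 24 Fli1 regions, 8 were in both neutrophil libraries and neither WT HSPC library.

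Etv6 (Gene ID 14011, chr6:134035700-134270158) encodes a repressor that stem cells need to persist in adult marrow, and it had the largest mutant difference of the 10 genes. H3K27ac covered 6.77 and 5.37 kb in WT HSPC, 19.4 and 26.9 kb in Npm1c, 21.4 and 16.5 kb in Flt3-ITD, 34.9 and 16.5 kb in DM and 17.6 and 19.3 kb in neutrophils. Every mutant and neutrophil library exceeded both WT HSPC libraries by over 2-fold, and the mutants overlapped the neutrophils. The difference from WT HSPC was 3.58-fold in Npm1c (log2 1.84, SE 0.35, adjusted p = 0.0238), 3.76-fold in DM (1.91, SE 0.35, 0.0149) and 2.89-fold in neutrophils (1.53, SE 0.35, 0.0127), in limma with n = 2 per group. Flt3-ITD stood at 2.96-fold (1.57, SE 0.35) and did not pass (adjusted p = 0.13), but passed after centring (1.43, 0.0339).

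Leaving out 1 library ended the Etv6 calls in Npm1c (adjusted p from 0.0512 to 0.15) and in neutrophils (0.052 to 0.105) in each of the 4 cases. In DM it ended the call for WT HSPC 1 (0.0849) and WT HSPC 2 (0.115), not for either DM library. With no filter on genes of low coverage, all 3 calls were lost (adjusted p of 0.339, 0.487 and 0.488) with the same log2 differences.

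The Etv6 values held both wider coverage at the start and further peaks along the gene. The region over the start, chr6:134034027-134040000, was in all 10 libraries and measured 2364 and 2067 bp in WT HSPC and 1780 and 2490 bp in neutrophils against 4937 to 5577 bp in the 6 mutant libraries. The next region, chr6:134040241-134042817, held 270 and 204 bp in WT HSPC, 2242 and 2216 bp in Npm1c, 1089 and 952 bp in Flt3-ITD, 1487 and 670 bp in DM and 396 and 915 bp in neutrophils. A region 14.2 kb before the start, chr6:134021138-134021848, had H3K27ac in all 6 mutant libraries, 320 to 711 bp, and in no WT library of either cell type. The same held for chr6:134156585-134157277, 121.2 kb into the gene, with 217 to 643 bp. Neutrophils had regions of their own, such as chr6:134109622-134110344 at 74.3 kb with 723 and 688 bp.

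**Figure D4:**
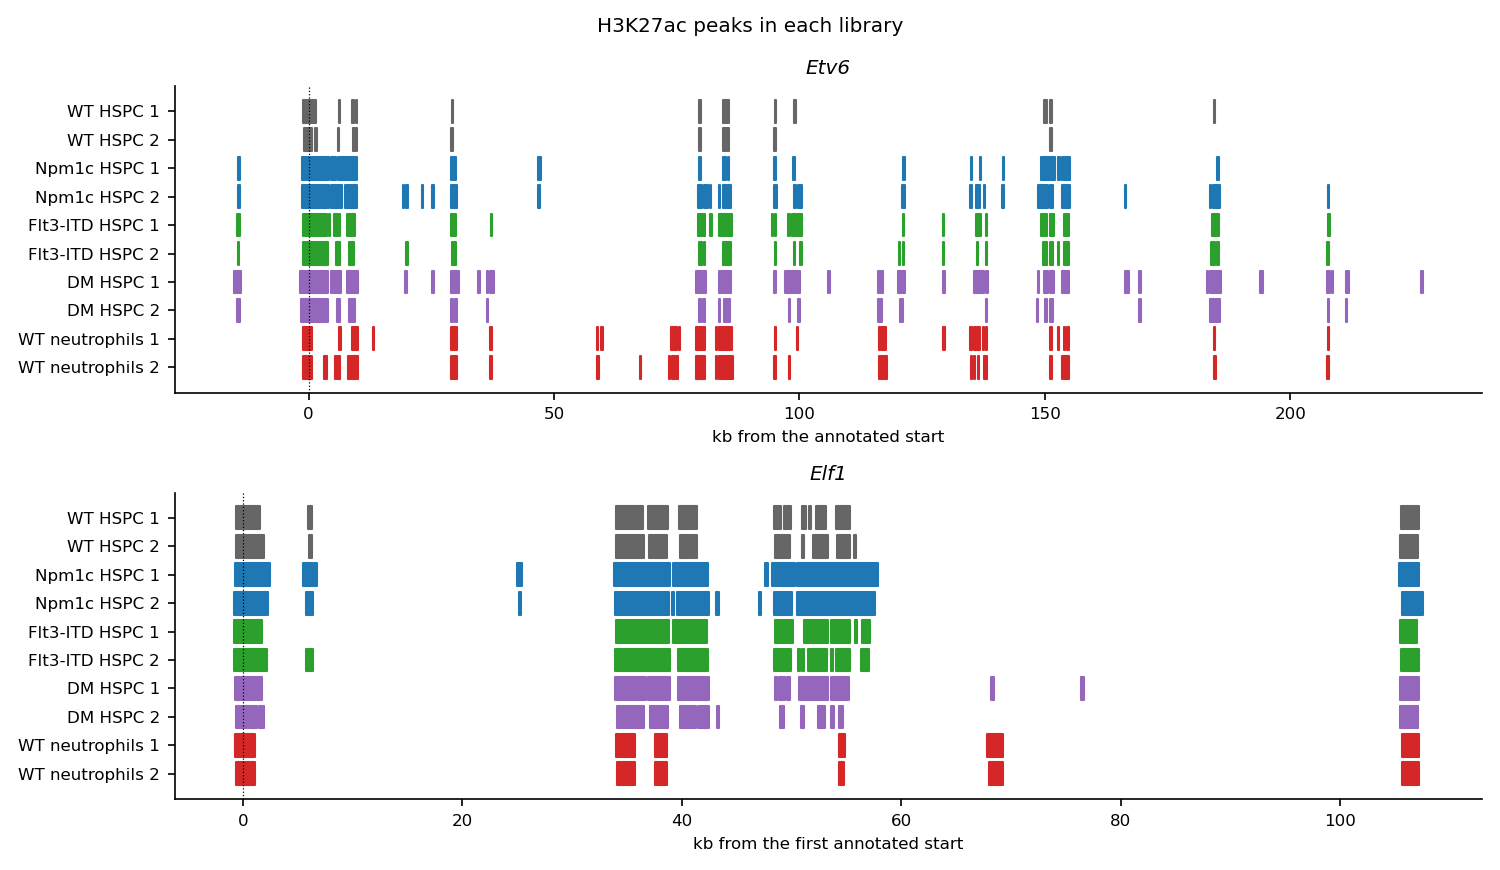
H3K27ac peaks of each of the 10 libraries along Etv6 and Elf1, in kb from the annotated start (for Elf1 the first of 2). Bars are peaks; the mutant libraries fill the first few kb of Etv6 and carry a peak at −14.2 kb that the WT libraries lack, and at Elf1 the Npm1c libraries are nearly continuous near 54.2 kb where neutrophils are almost empty.

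H3K4me3 at Etv6 covered 11 and 13 kb in WT HSPC, 20 and 16 kb in Npm1c, 23 and 29 kb in Flt3-ITD, 18 and 24 kb in DM and 22 and 25 kb in neutrophils. Neutrophils passed (log2 0.94, SE 0.21, adjusted p = 0.0334 in limma), and the call was lost without any 1 of the 4 libraries (0.0855 to 0.17). The mutants did not pass, with 1.08 in Flt3-ITD (adjusted p = 0.0906), 0.77 in DM (0.116) and 0.56 in Npm1c (0.824), although all 6 mutant libraries were above both WT HSPC libraries. H3K4me1 was already broad, 79 and 82 kb in WT HSPC and 76 to 97 kb elsewhere, and no comparison passed.

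Ets1 (Gene ID 23871, chr9:32636241-32757820), which lies beside Fli1 and is best known from lymphocytes, had the largest neutrophil difference of the 10 genes. H3K27ac covered 0.773 and 0.754 kb in WT HSPC, 0.78 and 1.45 kb in Npm1c, 0.963 and 0.99 kb in Flt3-ITD, 0.639 and 0.595 kb in DM and 5.26 and 5.35 kb in neutrophils. The 8 HSPC libraries stayed at or under 1.45 kb. Neutrophils were 4.59-fold above WT HSPC (log2 2.20, SE 0.19, adjusted p = 0.000243 in limma), and the call held in all 14 alternatives run (adjusted p from 4.56e-05 to 0.00694). A single region, chr9:32695425-32696566, was marked in all 10 libraries, with 595 to 1124 bp. Neutrophils alone had 7 more, the nearest to the lower end being chr9:32653757-32654448 (691 and 663 bp) and chr9:32657050-32658041 (644 and 992 bp). The H3K27ac of 4 T cell marker genes, all covered in every group, summed to 8.19 and 7.88 kb in neutrophils and 6.67 and 6.52 kb in WT HSPC. Cd3e, 1 of the 4, was called higher in limma (0.39, adjusted p = 0.0421), where 37.8% of all genes were called. By mean, Cd3g (2.73 against 2.09 kb) and Cd5 (2.78 against 1.81 kb) were also higher and Lck (1.08 against 1.7 kb) was lower, none of them called. The part of other cell types in the Ets1 values was not tested.

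H3K4me1 at Ets1 was lowest in DM HSPC. It covered 26.1 and 28 kb in WT HSPC, 15.1 and 27.3 kb in Npm1c, 26.2 and 21 kb in Flt3-ITD, 14.8 and 12.9 kb in DM and 33 and 35 kb in neutrophils. Both DM libraries were the lowest of the 10, and both neutrophil libraries the highest. The DM difference was −0.94 (95% interval −1.59 to −0.30, adjusted p = 0.0519), and it passed after centring (−0.63, 0.0192), with robust moderation (0.0182), with a pseudocount of 2000 bp (0.0493) and by number of peaks (0.0439). H3K4me3 at Ets1 was 6 and 7 kb in WT HSPC, 3 and 5 kb in DM and 12 and 13 kb in neutrophils, with adjusted p of 0.186 and 0.0568. The neutrophil difference passed after centring (1.26, 0.00286), with a 20 kb window (0.0488), with the gene span alone (0.0262) and with a pseudocount of 2000 bp (0.0397).

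Ets2 (Gene ID 23872, chr16:95702407-95721049), a target of RAS and MAPK signalling, lies beside Erg. H3K27ac covered 1.31 and 1.11 kb in WT HSPC, 1.39 and 1.92 kb in Npm1c, 1.35 and 1.58 kb in Flt3-ITD, 1.39 and 1.4 kb in DM and 2.31 and 2.65 kb in neutrophils. Neutrophils were above all 8 HSPC libraries (log2 0.80, SE 0.15, adjusted p = 0.00563 in limma), and the call was lost without WT HSPC 2 (0.0505) or neutrophil library 2 (0.0554). The start region, chr16:95701880-95703182, differed little, 1198 and 1209 bp in neutrophils and 1006 to 1285 bp in HSPC. The added coverage was at chr16:95707802-95708317 and chr16:95708407-95709119, 5.7 and 6.4 kb into the gene, with 452 and 516 bp and 661 and 713 bp in neutrophils. Of the HSPC libraries, Npm1c 2 alone had a peak there, 281 bp in the first. An H3K4me3 peak stood over the same place in both neutrophil libraries and in no HSPC library, which took the count at Ets2 from 1 peak to 2. The replicates of H3K4me3 at Ets2 did not differ at all, so that its adjusted p has no measured spread behind it, and with a 20 kb window the call was lost (0.49, 0.389).

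Elf1 (Gene ID 13709, chr14:79481174-79582491) encodes a widely expressed blood factor and was the only one of the 10 called lower in neutrophils for H3K27ac. Coverage was 14.1 and 14.6 kb in WT HSPC, 24.7 and 23.2 kb in Npm1c, 18.2 and 18.8 kb in Flt3-ITD, 17.7 and 12.7 kb in DM and 8.13 and 7.84 kb in neutrophils. Both Npm1c libraries were above all others and both neutrophil libraries below all others. Neutrophils fell to 0.57 of WT HSPC (log2 −0.81, SE 0.19, adjusted p = 0.0124 in limma; 0.0743 to 0.107 without any 1 of the 4 libraries). Npm1c rose 1.65-fold over WT HSPC by length (0.72, SE 0.19, adjusted p = 0.0394; 0.112 to 0.198 without any 1 library), but not by number of peaks (−0.18, 0.559). The Npm1c call was also lost with a 10 kb window (0.0766), the gene span alone (0.113), no filter (0.704) and after centring (0.29, 0.201). Without the filter, the neutrophil call was lost too (0.716). DM stood at 0.06 (0.893). The difference of DM from Npm1c was −0.66 by length (adjusted p = 0.0292 in limma) and 0.23 by number of peaks (0.362). That call was lost without Npm1c 1 (log2 −0.62) or Npm1c 2 (−0.70) and after centring (−0.26, adjusted p = 0.0708). It was also lost with a 10 kb window (0.0774), the gene span alone (0.107) and no filter (0.794).

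Elf1 had 13 and 12 H3K27ac peaks in WT HSPC and 10 and 12 in Npm1c, so its peaks were wider and not more numerous. The widest stretch, chr14:79531672-79539048, held 2738 and 2936 bp in WT HSPC, 7377 and 7034 bp in Npm1c, 4694 and 4456 bp in Flt3-ITD, 4314 and 1496 bp in DM and 564 and 513 bp in neutrophils. Beside it, chr14:79520306-79523705 and chr14:79529380-79531497 were marked in all 8 HSPC libraries and in neither neutrophil library. Neutrophils had 1430 and 1290 bp at chr14:79549032-79550461, where DM 1 had 222 bp and the other HSPC libraries none. The region over the second start, chr14:79515054-79520112, was marked in all 10, with 4071 to 5050 bp in HSPC and 2724 and 2726 bp in neutrophils. The 250 bases before that start carried H3K4me1 in 9 libraries and H3K4me3 in 0.

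H3K4me1 at Elf1 covered 32.6 and 36.5 kb in WT HSPC, 34.8 and 33 kb in Npm1c, 31.9 and 29.5 kb in Flt3-ITD, 28.6 and 26.9 kb in DM and 28 and 27.5 kb in neutrophils. DM was lower than WT HSPC (log2 −0.31, SE 0.07, adjusted p = 0.032) and than Npm1c (−0.29, SE 0.07, 0.0482), and neutrophils were lower than WT HSPC (−0.31, SE 0.07, 0.0286), in limma. After centring, these became 0.00 (0.988), −0.17 (0.435) and −0.13 (0.532), none called. The DM call against WT HSPC was also lost without DM 1 (0.0768), DM 2 (0.133) or WT HSPC 2 (0.139), the neutrophil call without WT HSPC 2 (0.123) or neutrophil library 1 (0.0988) or 2 (0.116), and the call against Npm1c without any 1 of its 4 libraries (0.0619 to 0.185). H3K4me3 at Elf1 was 9.39 and 9.39 kb in WT HSPC, 14.5 and 12.4 kb in Npm1c, 13.1 and 12.1 kb in Flt3-ITD, 10.5 and 11.4 kb in DM and 8.2 and 8.09 kb in neutrophils, with no call in any of the 6 comparisons. The Elf1 window also holds parts of Wbp4 and Sugt1.

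**Figure D5:**
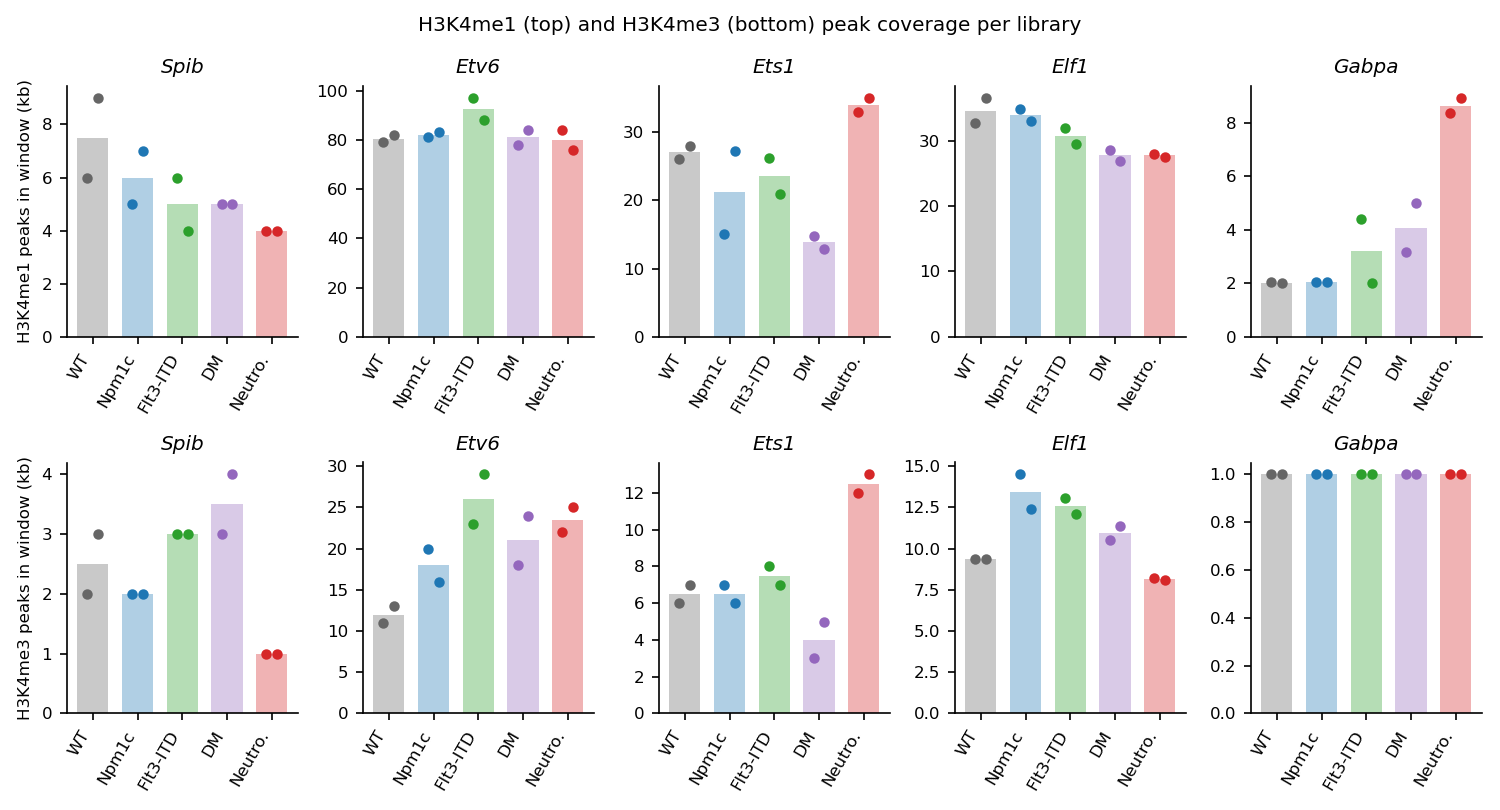
Length of the window under H3K4me1 peaks (top, gene span plus 20 kb) and H3K4me3 peaks (bottom, gene span plus 5 kb), in kb, for Spib, Etv6, Ets1, Elf1 and Gabpa; points are the 2 libraries of a group and bars their mean. Gabpa H3K4me1 is 8.35 and 8.93 kb in neutrophils against 2 to 5 kb in HSPC, while its H3K4me3 is 1 kb in every library.

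Elf4 (Gene ID 56501, chrX:48411049-48463132) encodes a factor that governs how readily stem cells leave quiescence. H3K27ac covered 1.76 and 1.73 kb in WT HSPC, 3.18 and 4.27 kb in Npm1c, 2.75 and 2.43 kb in Flt3-ITD, 5.03 and 1.8 kb in DM and 3.5 and 3.52 kb in neutrophils. All 8 other libraries were above both WT HSPC libraries, DM 2 only just, and no comparison passed (Npm1c 0.90, adjusted p = 0.0929; neutrophils 0.84, 0.0991). After centring, neutrophils passed at Elf4 (0.97, 0.0145). Without DM 2, the DM difference of 0.67 became 1.30 (adjusted p = 0.00629), and without DM 1 the difference from Npm1c became −0.86 (0.00766), so 1 library decided these values. The main H3K27ac region of Elf4, chrX:48452462-48454356, contained the inner start and was in all 10 libraries with 1121 to 1891 bp. The 250 bases before that start lacked the mark in both WT HSPC libraries and in neutrophil library 2. The window also holds parts of Bcorl1 and Aifm1.

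Gabpa (Gene ID 14390, chr16:84834891-84863783) encodes the DNA-binding subunit of GABP, which serves many housekeeping promoters, and its H3K27ac differed little between groups. Coverage was 1.96 and 2.08 kb in WT HSPC, 2.5 and 2.32 kb in Npm1c, 1.94 and 2.05 kb in Flt3-ITD, 2.13 and 1.98 kb in DM and 1.62 and 1.69 kb in neutrophils. The 95% interval of the neutrophil difference was −0.45 to 0.00 and that of DM −0.20 to 0.25. The neutrophil difference of −0.22 passed with the gene span alone (−0.25, adjusted p = 0.0474) and without the filter (0.0431), and was 0.74 by number of peaks (0.0664). Its start region, chr16:84834139-84836456, was marked in all 10 libraries, and H3K4me3 there was 1 kb in all 10. Its H3K4me1 rose in neutrophils, from 2.06 and 2 kb in WT HSPC to 8.35 and 8.93 kb (log2 1.85, SE 0.33, adjusted p = 0.0103 in limma). Of its 11 H3K4me1 regions, 6 were in both neutrophil libraries and neither WT HSPC library, and all 6 lay outside the gene span, toward Atp5j and Jam2. With the gene span alone the difference was 0.37 (adjusted p = 0.323), and leaving out any 1 of the 4 libraries ended the call (0.0511 to 0.06).

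At the genes not yet described for these marks, values overlapped between most groups. H3K4me1 covered 16 and 18 kb at Spi1 in WT HSPC and 14 to 23 kb elsewhere. Over Erg it lay on 50 and 54 kb in WT HSPC, 44 and 56 kb in Npm1c, 50 and 47 kb in Flt3-ITD, 32 and 44 kb in DM and 41 and 43 kb in neutrophils. DM and neutrophils were thus at or below the lowest of the other HSPC libraries at Erg, by −0.46 in DM (adjusted p = 0.108; −0.69, 0.0476 without DM 2) and −0.30 in neutrophils (0.249). Fli1 had 35 and 32 kb in WT HSPC and 29 to 36 kb elsewhere, and Elf4 17 and 20 kb against 14 to 20 kb. At Ets2, 5 and 6 kb in WT HSPC stood beside 3 to 6.47 kb in the other groups. Spib had 6 and 9 kb in WT HSPC and 4 and 4 kb in neutrophils (−0.80, adjusted p = 0.0676 in limma). That difference passed after centring (−0.63, 0.0489) and with robust moderation (−0.80, 0.0403).

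H3K4me3 at Spi1 was highest in neutrophils, 9 and 10 kb against 6 and 7 kb in WT HSPC (0.52, adjusted p = 0.0598; 0.46, 0.0455 with a 20 kb window), and lowest in DM, 4 and 5 kb (−0.49, 0.125). Erg had 5 and 6 kb in WT HSPC, 10 and 10 kb in Npm1c (0.81, adjusted p = 0.22), 7 and 9 kb in Flt3-ITD, 7 and 9 kb in DM and 8 and 7 kb in neutrophils. Every other library was above both WT HSPC libraries at Erg, with no call. Fli1 had 12 and 13 kb in WT HSPC, 17 and 13 kb in Npm1c, 13 and 11 kb in Flt3-ITD, 8 and 9.3 kb in DM and 14 and 12 kb in neutrophils, with DM lowest (−0.51, 0.163). Elf4 stayed at 8 or 9 kb in all 10 libraries.

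For H3K4me1, 2 of the 10 were called in neutrophils (Gabpa and Elf1, where 26.4% of all genes were called), 1 in DM against WT HSPC (21.5%) and 1 in DM against Npm1c (17.1%), Elf1 both times. None was called in Npm1c (0.214% of all genes; 0 members at an unadjusted p under 0.05), Flt3-ITD (1.25%; 1 member) or DM against Flt3-ITD (10.7%; 1 member). For H3K4me3, 3 of the 10 were called in neutrophils (Etv6 and Ets2 higher, Spib lower; 16.6% of all genes). Of the rest, none passed in limma in Npm1c (1.37% of all genes; 4 members at an unadjusted p under 0.05), Flt3-ITD (2.73%; 3 members), DM (8.16%; 6 members), DM against Npm1c (8.13%; 4 members) or DM against Flt3-ITD (5.65%; 3 members). For H3K4me1, 8.89% of all genes in Npm1c had an unadjusted limma p under 0.05, with 13.7% in Flt3-ITD and 26.7% in DM against Flt3-ITD. For H3K4me3 these shares were 5.13% in Npm1c, 8.07% in Flt3-ITD, 17.8% in DM, 17.4% in DM against Npm1c and 11.5% in DM against Flt3-ITD. Peaks of these 2 marks were 1000 bp wide, so values move in steps of about 1 kb and replicates of many genes had equal values.

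The interaction of Npm1c and Flt3-ITD, a contrast added after the data were seen, asks whether DM departs from the sum of both single mutants on the log2 scale. Elf1 passed it for H3K27ac (−1.02, SE 0.26, adjusted p = 0.0399; 18.2% of all genes called) and for H3K4me3 (−0.69, SE 0.11, 0.0265; 5.74%). By number of H3K27ac peaks the Elf1 value was 0.13 (0.805). The H3K27ac call was lost without any 1 of the WT HSPC, Npm1c or Flt3-ITD libraries (0.0617 to 0.146), and the H3K4me3 call without DM 1 (0.0773), Flt3-ITD 1 (0.0699), WT HSPC 1 (0.071) or WT HSPC 2 (0.0822). Etv6 was at −1.50 (SE 0.50, adjusted p = 0.0712) and Erg at −0.97 (SE 0.43, 0.128) for H3K27ac. No ETS gene passed for H3K4me1 in limma (0 of 10 at an unadjusted p under 0.05; 2.92% of all genes called).

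Peak positions showed where the differences lay. Merging the peaks of the 10 libraries left 173 H3K27ac regions in the windows, 62 of them at Etv6, 28 at Erg and 24 at Fli1. Of the 173, 23 were in all 10 libraries and 54 in 1 library only. Of the same 173, 163 overlapped an H3K4me1 region and 125 an H3K4me3 region, merged over libraries and not matched by library. H3K4me3 regions were taken from the narrower window of that mark, so H3K27ac regions outside it could not be matched. The count of 125 H3K27ac regions may therefore be too low, and no genome-wide share is given for either overlap. In both neutrophil libraries and neither WT HSPC library were 44 regions (25.4%, against 16.3% of all 48381 regions in the genome), of which 15 were at Etv6, 8 at Ets1 and 8 at Fli1. The reverse pattern had 4 (2.31% against 9.22%), 3 at Elf1 and 1 at Erg. In both libraries of a mutant and neither WT HSPC library were 16 in Npm1c (9.25% against 7.9%), 14 in Flt3-ITD (8.09% against 4.43%) and 26 in DM (15% against 7.53%), with 9, 10 and 15 of them at Etv6. In both WT HSPC libraries and neither DM library were 2 (1.16% against 6.55%), 1 at Elf1 and 1 at Fli1.

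Stricter patterns were rarer. Both neutrophil libraries and no HSPC library had 20 regions (11.6% against 10.2%), 7 at Ets1 and 4 each at Erg and Etv6. All 8 HSPC libraries and neither neutrophil library had 3 (1.73% against 2.3%), 2 at Elf1 and 1 at Erg. All 6 mutant libraries and neither WT HSPC library had 4 (2.31% against 1.17%), 3 at Etv6 and 1 at Erg. For H3K4me1, 34 of 376 regions were in both WT HSPC libraries and neither DM library (9.04% against 12.4%), 10 at Ets1 and 10 at Erg. In neutrophils 27 were present that WT HSPC lacked (7.18% against 8.7%). For H3K4me3 the neutrophil count was 25 of 132 (18.9% against 11.2%), 11 at Etv6 and 6 at Ets1. Regions of 1 gene share their library and are not independent, and these shares have no test.

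The H3K27ac test called 19.2% of all genes in Npm1c, 13.5% in DM, 37.8% in neutrophils and 0.124% in Flt3-ITD. Of the 17 other ETS family genes, 11 were tested for H3K27ac. In Npm1c 5 were higher and 0 lower, led by Elk3 (2 against 0.553 kb in WT HSPC, log2 1.15), Elf3 (1.15), Etv1 (0.598 kb against 0) and Elk4 (0.84). In DM 2 were higher, Elk3 (1.22) and Etv3 (0.85). Neutrophils had 1 higher, Etv4 (1.48 kb ± 0.241 SD against 0 in both WT HSPC libraries, n = 2), and 2 lower, Etv5 (−0.83) and Erf (−0.48), while in Flt3-ITD 0 passed in limma. Their median difference was 0.52 in Npm1c, 0.52 in Flt3-ITD, 0.28 in DM and −0.02 in neutrophils.

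The counts in this paragraph stand beside 19.2% of all genes called in Npm1c, 13.5% in DM, 37.8% in neutrophils and 0.124% in Flt3-ITD. Over all genes in Npm1c, 2789 were called higher and 2 lower, with a median difference of 0.39. Genes of factors that work with ETS proteins moved in both directions. Of 14 tested, 7 were higher in Npm1c, led by Gata2 (8.46 kb ± 0.0106 against 1.38 ± 0.172, SD, n = 2; log2 2.25), a stem cell factor, and Runx1 (18.9 against 8.37 kb, 1.13). In DM 3 were higher and 3 lower. Irf8, which pairs with PU.1 in monocyte and dendritic cells, had 3.66 kb ± 1.85 (SD, n = 2) in DM and 3.94 kb ± 0.171 in Flt3-ITD against 0 in both WT HSPC libraries. Tal1 fell by 2.06 on the log2 scale in DM and Lmo2 by 1.03, and Gata2 was at 0 in both DM libraries. Neutrophils had Fos and Jun higher and Tal1, Gata1, Gata2, Lyl1 and Lmo2 lower. Erythroid marker genes moved with these: 4 of 5 were lower in DM and 5 of 5 in neutrophils, and their summed H3K27ac was 21.8 and 20.6 kb in WT HSPC, 4.36 and 2.98 kb in DM and 2.26 and 2.06 kb in neutrophils. Megakaryocyte marker genes were higher in Npm1c (3 of 4 called, 15 and 11.3 kb against 7.78 and 8.8 kb), as were HSPC marker genes (4 of 6, 26.6 and 31.8 kb against 5.18 and 5.19 kb). The HSPC markers summed to 12 and 17.5 kb in Flt3-ITD, with 0 of 6 called in limma, and to 19.3 and 10.8 kb in DM, with Flt3 and Meis1 called higher and Gata2 lower. The part of these cell types in the ETS values was not tested.

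Over all genes, 37.8% were called for H3K27ac in neutrophils, 2078 higher and 3429 lower, with 13.5% in DM and 19.2% in Npm1c. Known PU.1 targets were tested for 16 of 18 genes. In neutrophils 6 were higher, among them Itgam (4.82 kb ± 0.411 against 0.417 ± 0.0806, SD, n = 2; log2 2.54) and Tlr4 (1.95), and 2 were lower, Mpo (0 against 2.99 kb) and Cd79a. In DM 2 were higher, Csf1r (3.16 kb ± 1.27 against 0.706 ± 0.368; log2 1.59) and Cd14 (0.77), both also counted as monocyte markers, whose summed H3K27ac was 19.6 and 10.1 kb in DM and 8.64 and 7.5 kb in WT HSPC. In Npm1c 1 was higher, Fcgr3 (1.28), and in Flt3-ITD 0 passed in limma. The median over the 16 was 0.45 in neutrophils, 0.30 in DM and 0.39 in Npm1c, where the median over all genes was also 0.39.

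By Pearson correlation of H3K27ac log2(bp + 500) over the 10 libraries, the genes most like each member were as follows, given as a description over libraries that share list length. Etv6 was closest to Gpcpd1 (0.99) and Mapkapk2 (0.97), which also had least in WT HSPC (1.69 and 3.74 kb) and more in the 4 other groups. Ets1 was closest to Rab20, Cfap57 and Atp11a (0.99 each), with 6.88, 3.21 and 7.22 kb in neutrophils. Among the genes most like Elf1 was Zfand5 (0.99), highest in Npm1c and lowest in neutrophils (3.77 and 1.93 kb). Spi1 was closest to Ubxn11 (0.99), Zfp523 and Grn (0.98 each), and Erg to Pdia3, Adipor2 (0.98 each) and Dnm3 (0.97). For Fli1, the first, Col4a1 (0.98), had at most 0.362 kb as a group mean, and Btd and Hvcn1 followed at 0.97. Ets2 was closest to Slc35a5 and Atg3, which share a window (0.98), Elf4 to Myo1c (0.98), Gabpa to Pitpnm2 (0.99) and Spib to Emc8 and Cox4i1, which also share one (0.93).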

How the data were processed

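H3K4me1, H3K4me3 and H3K27ac ChIP-seq of mouse HSPC and neutrophils was represented by 30 peak lists, 2 per group and mark. The values used are peak coordinates deposited by the authors, with no score or count, so read depth is unknown, and 5 input samples were not used. Per the submitters' processing notes, Bowtie2 2.1.0, Picard, HOMER and MACS2 were used with mm10. H3K4me1 and H3K4me3 peaks have a fixed width of about 1000 bp. The peak thresholds were not given in sources used here.

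Covered bp per gene was computed for 21883 genes of RefSeq GRCm38.p6 (spans without exons), transformed as log2(bp + 500), and filtered for genes covered in at least 2 libraries. Groups were compared with limma 3.58.1 (R 4.3.3) over all 5 groups, with Benjamini-Hochberg adjustment over all genes tested. The fit was tested on simulated data, where 55% of H3K27ac differences of 1 log2 unit and 88% of those of 2 were recovered in DM against WT HSPC. There were 8 false calls. The simulation changed 200 genes in DM only and held no other group difference and no shift of a whole library. Its rates are therefore not the power in these data. Replicates are labelled biological, and p-values measure the spread between these libraries.

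Members and lists were chosen with earlier results of these data known. All 10 members are described. Of other genes, those named are up to 4 called genes of a list per comparison, by size of difference, and up to 3 genes most like each member; Fos, Jun, Lmo2 and Cd79a were named after their values were seen. Some genes that this rule names are not reported here. Alternatives were the window, pseudocount, filter, centring, peak number, widest peaks, robust moderation, replicate block and leaving out each library.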

Additional observations from a re-analysis of the deposited data

Results flagged for a closer look

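Elf1 departed from the sum of the Npm1c and Flt3-ITD effects in DM HSPC for 2 marks, by the test of the interaction itself in limma, a contrast added after the data were seen. For H3K27ac the interaction was −1.02 (SE 0.26, adjusted p = 0.0399). It passed in 6 of 18 alternatives, where it ran from −1.25 to 0.13 with adjusted p from 0.00286 to 0.805. For H3K4me3 it was −0.69 (SE 0.11, adjusted p = 0.0265), passing in 11 of 17 alternatives, from −0.79 to −0.11 with adjusted p from 0.00502 to 0.852. With 18.2% and 5.74% of all genes called by the same contrast, Elf1 shared this with many genes.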

How the results depend on the processing

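The differences called for the 10 genes are sensitive to single libraries, since each group has 2, and depth is unknown. Of the 19 calls, Ets1 H3K27ac in neutrophils held in all 14 alternatives. Among results called in either setting, those that changed sign were Elf1 H3K27ac by number of peaks in Npm1c against WT HSPC (−0.18), in DM against Npm1c (0.23) and in the interaction (0.13), Elf1 H3K4me1 in DM against WT HSPC after centring (0.00) and Spib H3K27ac in neutrophils with the gene span alone (0.30). Gabpa H3K27ac in neutrophils also turned from −0.22 to 0.74 by number of peaks, called in neither. The cause was not tested.

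Counts of ETS genes called moved as follows. The share of all genes called moved with the setting too. It is not given for each setting or left-out library, so these counts have no background beside them. For H3K27ac, Npm1c against WT HSPC (3) gave 0 after centring, 0 with no filter, 0 by number of peaks and 1 with the replicate block. Flt3-ITD (0) gave 1 after centring. DM (2) gave 3 after centring, 0 with no filter, 1 by number of peaks and 1 with the block. Neutrophils (6) gave 8 after centring and 3 by number of peaks, and with no filter lost Fli1, Etv6 and Elf1 and gained Gabpa. DM against Npm1c (1) gave 0 with 10 kb, no filter or number of peaks and 2 with the widest peaks. For H3K4me1, DM against WT HSPC (1) gave 3 after centring, 2 by number of peaks, with 2000 bp or with robust moderation, and 0 with the block. DM against Npm1c (1) gave 0 with 10 kb, no filter, number of peaks, robust moderation or the block. For H3K4me3, Flt3-ITD and DM against Npm1c (0 each) gave 1 with 20 kb, and DM against WT HSPC and against Flt3-ITD (0 each) gave 1 with the block. With the gene span alone, H3K27ac calls were lost at Erg (adjusted p = 0.0631 in limma) and Elf1 (0.113) in Npm1c. So was the Erg call in DM (0.0636). Elf1 lost its H3K27ac (0.107) and H3K4me1 (0.0566) calls in DM against Npm1c, and Gabpa its H3K4me1 call in neutrophils (0.323). H3K27ac calls were gained at Spi1 in DM (0.0462) and at Gabpa (0.0474) and Spib in neutrophils. H3K4me3 calls were gained at Fli1 in DM against Npm1c (0.0396) and at Ets1 in neutrophils (0.0262).

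Leaving out 1 library gave, for H3K27ac, 0 to 1 calls in Npm1c, 0 to 0 in Flt3-ITD, 0 to 4 in DM, 1 to 3 in neutrophils, 0 to 2 in DM against Npm1c and 0 to 1 in DM against Flt3-ITD. For H3K4me1 these were 0 to 1, 0 to 0, 0 to 1, 0 to 1, 0 to 1 and 0 to 0, and for H3K4me3 0 to 1, 0 to 0, 0 to 1, 1 to 2, 0 to 2 and 0 to 1. A lone library is assumed to vary like the other groups. Same-numbered libraries correlated from −0.231 to 0.279 in their deviations, so replicate numbers were not taken as pairs; with the replicate block, 1398 genes rose in Npm1c H3K27ac against 2789 without it. The block ended the Erg calls in Npm1c (adjusted p = 0.0581) and DM (0.0554) and added Spi1 H3K4me3 in neutrophils (0.0137) and in DM against WT HSPC (0.0299), in limma. Centring left 95 higher and 4 lower in that comparison, against 2789 and 2. Leaving out 1 library also added calls. Without Npm1c 1, H3K27ac at Ets1 was called in Npm1c (0.63) and in DM against Npm1c (−0.81), as was H3K4me1 there (−0.96). Without DM 1, H3K27ac at Elf1 was called against Flt3-ITD (−0.53), and without DM 2 Elf4 was (0.84). Without Npm1c 2, H3K4me1 at Ets1 was called in Npm1c (−0.82), H3K4me3 at Elf1 in Npm1c (0.60) and in DM against Npm1c (−0.39), and H3K4me3 at Fli1 in DM against Npm1c (−0.94). Without DM 2, H3K4me3 at Ets1 was called lower in DM than in WT HSPC, Npm1c and Flt3-ITD (−1.19 for the last).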
